A study of Rattus norvegicus with 144 samples.

Results

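Ubiquitin and its relatives are small proteins that cells attach to other proteins, and the genes described here encode several of these modifiers, the enzymes that attach them and the enzymes that take them off. The genes were taken by symbol. A gene was included when its symbol in the platform annotation starts with Uba, Ubd or a related stem, with Ube, Usp or Sumo and a digit, with Uch or Otu, or with Nedd4 or Nedd8. This gave 79 of 18978 gene rows, each row being 1 symbol or 1 probe without a single symbol. The 79 genes were read by 135 probes, and the probes of the 37 genes with more than 1 probe were averaged. By role they were 4 modifiers (Ubd, Sumo2, Sumo3 and Nedd8), 4 activating enzymes, 19 conjugating enzymes, 8 ligases or chain-extending factors, 40 deubiquitinases and 4 other genes with a matching symbol (Ubac1, Ubap1, Ubap2 and Usp6nl).

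The study asked how the liver of the rat responds to acetaminophen, a painkiller whose overdose damages liver cells, over dose and time. Male F344/N rats, an inbred strain, were 10 to 12 weeks old and were given vehicle or acetaminophen at 150, 1500 or 2000 mg/kg by oral gavage, split into 2 doses. All groups, those given acetaminophen included, received the vehicle, 0.5% ethyl cellulose. The left liver lobe was taken at 3, 6 or 24 h, which made 12 groups of 6 rats. Each rat was read on 2 two-colour arrays with exchanged dyes, against pooled liver RNA of 6 vehicle rats killed at that time. A level below is therefore a log2 ratio of the rat over that pool, with 2 arrays averaged per rat, and a difference is the mean of a dosed group minus the mean of the vehicle group of the same time, given with its SE. The levels of vehicle rats were not near 0 for every gene, and the cause was not tested. For Sumo3 at 3 h, vehicle rats 1658 and 2698 lay at 0.609 and 0.862. The term "called" is used for a limma adjusted p of at most 0.05 over all 18978 rows.

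In this pathway an activating enzyme (E1) charges the modifier, a conjugating enzyme (E2) carries it, and a ligase (E3) joins it to the target protein. Chains of ubiquitin can send a protein to the proteasome, while other chain types and the related modifiers SUMO and NEDD8 alter activity, location or binding. Deubiquitinases cut the modifiers off again and recycle them. In liver cells the system clears damaged and oxidised proteins, and it sets the lifetime of many regulators of stress responses and of the cell cycle.

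Neither the log base nor the direction of the deposited ratios was stated in the sources used here. The values were read as log10 of Cy5 over Cy3, so another base would scale all differences by 1 factor. The direction is likely and was judged from genes of the antioxidant response, which acetaminophen induces. At 24 h and 2000 mg/kg the difference from vehicle was 2.16 ± 0.16 for Nqo1, 2.44 ± 0.50 for Hmox1 and 2.30 ± 0.20 for Gclm, each above the vehicle mean in 6 of 6 rats. After turning the arrays with the rat in Cy3, the 2 arrays of a rat correlated above 0 in 60 of 72 rats (median r 0.204, across probes, which are not independent replicates). A common set of about 500 probes was blank on 49 arrays, on both arrays of 23 rats. These rats occurred in both dosed and vehicle groups, with 3 rats at 2000 mg/kg and 2 at vehicle at 24 h, but with 3 at 2000 mg/kg and 0 at vehicle at 3 h. Since a value is a ratio of liver to liver, the levels of hepatocyte markers cannot check the tissue label. For 0 of 4 measured hepatocyte markers did the 24 h, 2000 mg/kg group differ from vehicle past the threshold. At 24 h and 1500 mg/kg Cps1 of the urea cycle was lower (-0.54 ± 0.17), and Tat, which degrades tyrosine, was higher after 2000 mg/kg at 3 h (1.94 ± 0.40) and at 6 h (1.57 ± 0.40).

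Promoter sequences are shown for the genes that carry the time course, Ubac1 and Ube2f with their highest differences at 6 h, Ube2t with its highest at 3 h, and Ubd with its fall at 24 h. Each is the 250 bases before the annotated start in RefSeq (assembly GRCr8), 5′ to 3′ on the strand of the gene, with matches to the motifs named below in capitals.
Ubac1: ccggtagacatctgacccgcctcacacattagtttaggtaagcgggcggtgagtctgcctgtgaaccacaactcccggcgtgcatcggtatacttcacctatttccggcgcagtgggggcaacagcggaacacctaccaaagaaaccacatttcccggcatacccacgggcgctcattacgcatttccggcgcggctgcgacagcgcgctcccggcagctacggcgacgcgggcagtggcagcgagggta
Ube2f: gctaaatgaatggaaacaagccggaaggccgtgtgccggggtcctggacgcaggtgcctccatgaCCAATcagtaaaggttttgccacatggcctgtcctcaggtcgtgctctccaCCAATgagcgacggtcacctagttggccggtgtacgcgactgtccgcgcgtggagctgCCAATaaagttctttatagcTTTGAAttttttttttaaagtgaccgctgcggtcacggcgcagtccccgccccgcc
Ube2t: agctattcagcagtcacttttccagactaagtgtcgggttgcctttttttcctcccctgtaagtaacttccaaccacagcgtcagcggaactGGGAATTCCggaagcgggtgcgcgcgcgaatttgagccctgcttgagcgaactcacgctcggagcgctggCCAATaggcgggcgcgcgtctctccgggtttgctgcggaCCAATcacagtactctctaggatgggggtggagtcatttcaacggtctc
Ubd: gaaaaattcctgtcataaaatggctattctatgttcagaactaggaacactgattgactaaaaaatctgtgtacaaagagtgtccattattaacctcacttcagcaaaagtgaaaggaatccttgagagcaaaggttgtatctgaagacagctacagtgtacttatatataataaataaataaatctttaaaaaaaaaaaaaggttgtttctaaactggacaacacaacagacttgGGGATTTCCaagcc
The stretch of Ubac1 is on chromosome 3, bases 29246162 to 29246411, on the minus strand, and that of Ube2f on chromosome 9, bases 99293265 to 99293514, on the plus strand. The stretch of Ube2t is on chromosome 13, bases 48954916 to 48955165, on the plus strand, and that of Ubd on chromosome 20, bases 1392686 to 1392935, on the minus strand.

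A RefSeq promoter was found for 67 of the 79 genes. For a symbol with several entries the first alone was used, also among all promoters, so other starts were not searched. In the 67 promoters 7 motifs were searched on both strands, where N is any base and matches of different motifs may overlap. The core of the antioxidant response element, TGACNNNGC, was found in 12 of the 67 promoters (17.9%), against 10.2% of all 27457 promoters of the same length. The CCAAT box, CCAAT, was found in 26.9% of the 67, against 34.3% of all. The cell cycle homology region in the form TTTGAA was found in 10.4%, against 16.03% of all. The NF-kB site in the form GGGANTTCC was found in 2.99%, against 1.51% of all. The heat shock element form GAANNTTC was in 1.49%, against 7.02%, and the interferon response core GAAANNGAA in 4.48%, against 7.99%. The C/EBP-ATF response element TGATGNAA was in 0 of the 67, against 3.27% of all. Among the 4 genes shown, Ube2f held 3 CCAAT boxes and 1 TTTGAA, Ube2t held 2 CCAAT boxes and 1 NF-kB form, Ubd held 1 NF-kB form that ended 6 bases before the start, and in the window of Ubac1 none of these letters were found. A match of letters is a description of the sequence and not of binding.

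The ubiquitin genes responded little at 3 and 6 h and widely at 24 h, and then mostly upwards. At 24 h after 2000 mg/kg, 22 of the 79 genes were called higher (27.8%), against 11.8% of all rows, and 5 were called lower (6.33%), against 12.5% of all rows. At 24 h after 1500 mg/kg, 21 genes were called higher (26.6%), against 10.2% of all rows, and 5 lower (6.33%), against 11.4% of all rows. All rows include 9320 probes without a symbol, each a row of its own, and shares over named genes alone were not counted. The median difference of the 79 genes at 24 h was 0.16 after 1500 mg/kg and 0.17 after 2000 mg/kg, against medians of -0.01 and -0.015 over all rows. Among the 27 genes called after 2000 mg/kg, the values of the dosed and the vehicle rats did not overlap for 12 (15.2% of the 79), against 10.3% of all rows called without overlap. Of the 31 genes called at 24 h at either dose, 22 were called at both doses in the same direction. The 2 comparisons share their vehicle rats, and the like overlap over all rows was not counted. With the fit restricted to the rats of 1500 mg/kg and vehicle at 24 h, 9 genes were called, 4 higher and 5 lower, of 1406 rows called in all. Among rats with the shared blank probes on neither array, 3 genes were called after 1500 mg/kg, 2 of them higher, and 12 after 2000 mg/kg, 11 of them higher, where 594 and 2772 of all rows were called.

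**Figure D1:**
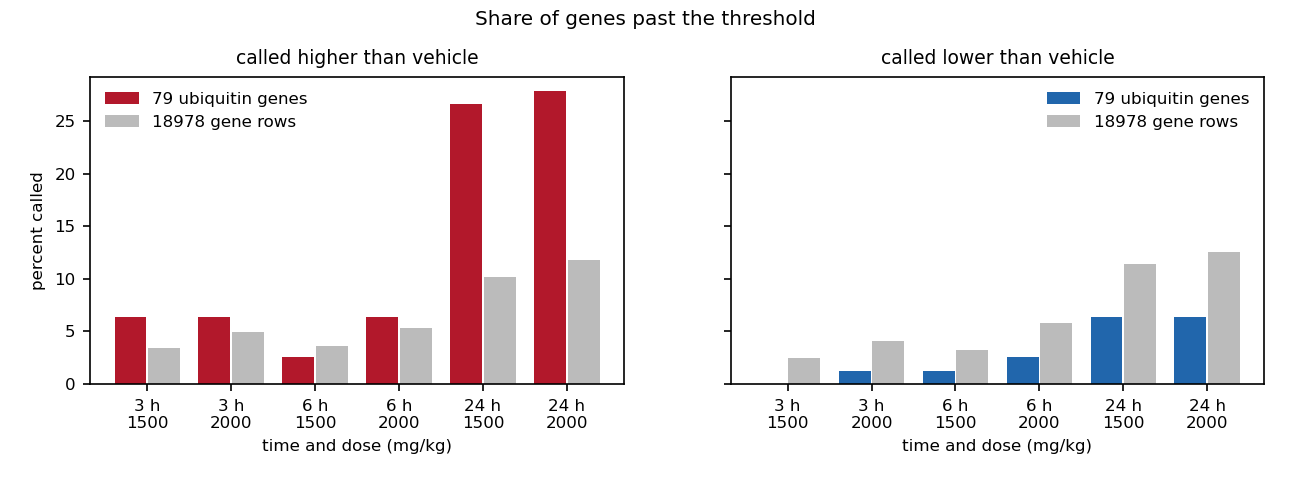
Percent of the 79 ubiquitin genes (coloured bars) and of all 18978 gene rows (grey bars) called higher (left) or lower (right) than vehicle of the same time, by time and dose. At 24 h the coloured bars for higher calls reach 26.6% and 27.8%, against 10.2% and 11.8% for all rows, while those for lower calls stay at 6.33%, against 11.4% and 12.5%.

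At the earlier times the share of called genes was near that of all rows. At 3 h, 5 genes were higher after 1500 mg/kg (6.33%), against 3.39% of all rows, and 0 were lower, against 2.44% of all rows. After 2000 mg/kg at 3 h, 5 were higher, against 4.92% of all rows, and 1 was lower (1.27%), against 4.09% of all rows. At 6 h after 1500 mg/kg, 2 genes were higher (2.53%), against 3.65% of all rows, and 1 was lower, against 3.23% of all rows. After 2000 mg/kg at 6 h, 5 genes were higher (6.33%), against 5.31% of all rows, and 2 were lower (2.53%), against 5.84% of all rows. Over the 6 comparisons of a high dose with vehicle, 38 genes were called at least once (48.1%), against 38.7% of all rows, 41 never and 0 in all 6. Markers of stellate cells, the collagen-producing cells of the liver, were in part lower after 2000 mg/kg. These were 2 of 4 markers at 3 h and 3 of 4 at 6 h. Pdgfrb differed by -0.64 ± 0.16 at 3 h and by -1.09 ± 0.16 at 6 h. The collagen gene Col1a2 was not called at 3 h (0.09 ± 0.15) and was lower at 6 h (-0.46 ± 0.15). The mean level of the 4 markers per rat ranged from -0.333 to -0.015 at 3 h after 2000 mg/kg, against -0.007 to 0.286 in vehicle rats, and from -0.588 to -0.195 at 6 h, against -0.001 to 0.395 in vehicle rats. Their part in the gene changes at 3 and 6 h was not tested.

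The low dose and the step between the high doses gave no calls in limma. After 150 mg/kg, 0 of the 79 genes were called at 3, 6 or 24 h, where 0% of all rows were called. At an unadjusted p under 0.05, 1 gene at 3 h (1.27%), 1 at 6 h (1.27%) and 2 at 24 h (2.53%) passed, against 3.73%, 3.1% and 2.79% of all rows. Between 2000 and 1500 mg/kg, 0 genes were called at 3, 6 and 24 h, against 0.0105%, 0.00527% and 0% of all rows. At an unadjusted p under 0.05, 3 genes at 3 h (3.8%), 3 at 6 h (3.8%) and 2 at 24 h (2.53%) passed, against 4.17%, 4.07% and 4.45% of all rows.

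**Figure D2:**
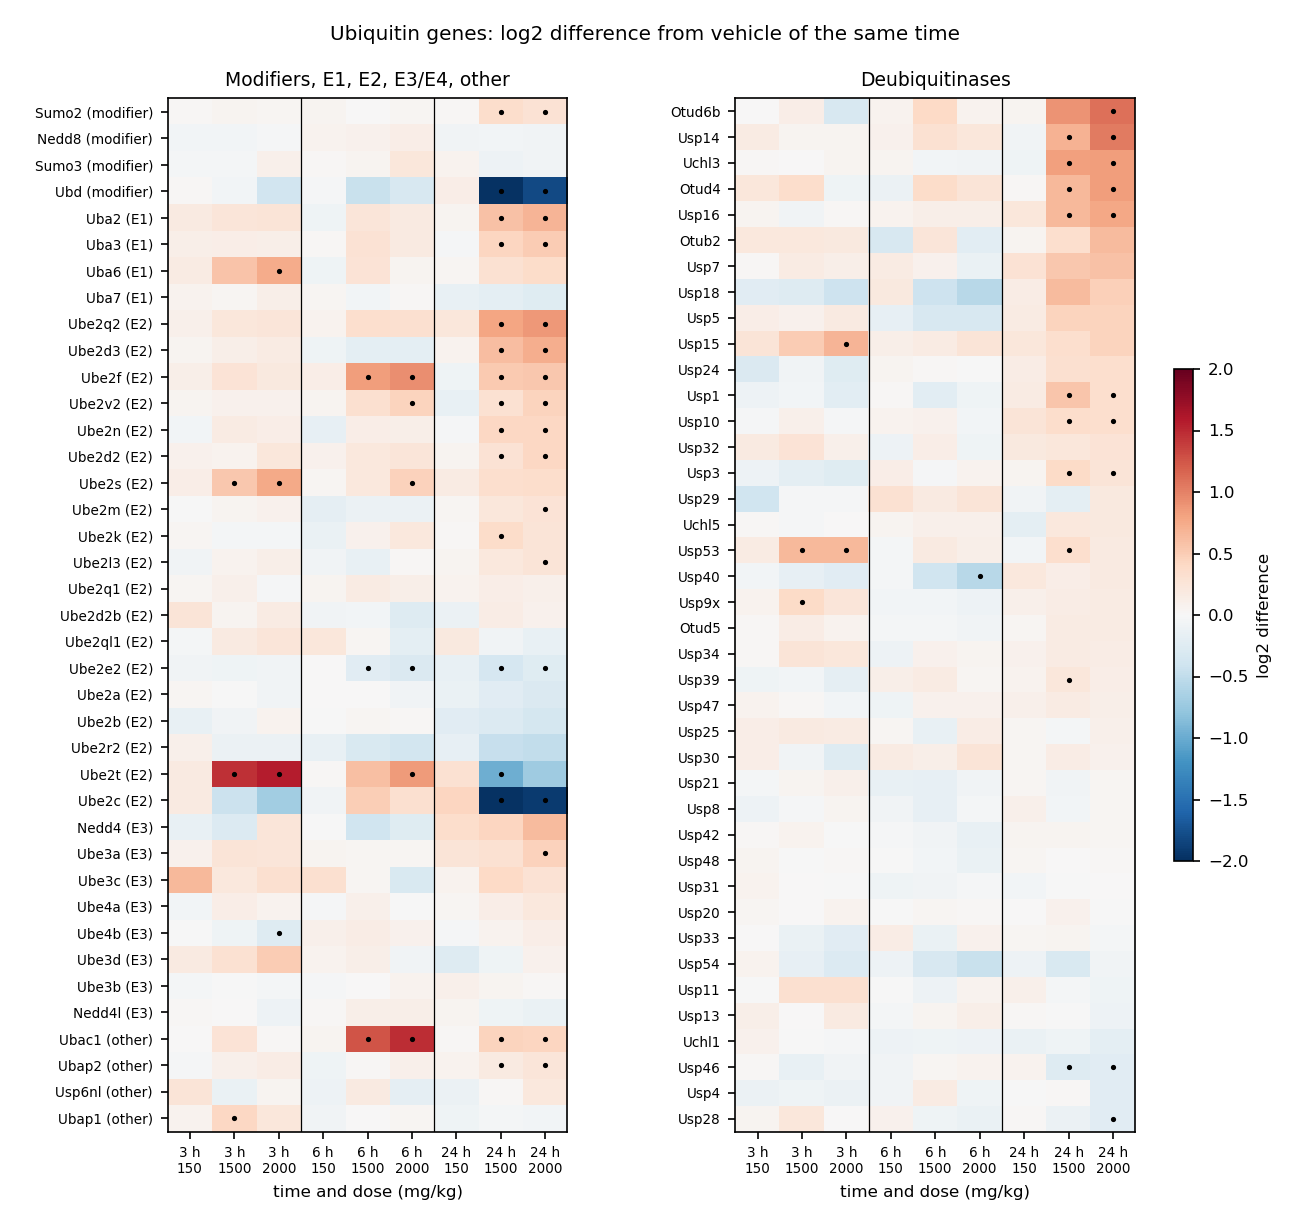
Log2 difference from vehicle of the same time for each of the 79 genes (rows, grouped by role and ordered by their value at 24 h and 2000 mg/kg) in the 9 comparisons (columns, time above dose in mg/kg); dots mark calls at a limma adjusted p of at most 0.05. Dots are few at 3 and 6 h, with at most 7 in a column, and number 26 and 27 in the columns of the high doses at 24 h, where Ubd and Ube2c lie at -1.97 after 1500 mg/kg.

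Among the modifiers, Ubd stood apart. It encodes FAT10, a modifier of 2 ubiquitin-like domains that interferon gamma and tumour necrosis factor induce. At 24 h the level of Ubd ranged from -3.47 to -1.15 (median -1.66) in the 6 rats given 2000 mg/kg, against -0.53 to 0.10 (median -0.01) in the 6 vehicle rats. Both high-dose groups lay wholly below the vehicle rats. The difference of Ubd was -1.97 ± 0.24 after 1500 mg/kg (adjusted p = 2.796e-09) and -1.81 ± 0.24 after 2000 mg/kg (adjusted p = 1.168e-08). At 3 h after 2000 mg/kg all 6 rats were also below all vehicle rats, but the difference of -0.38 ± 0.24 did not pass (adjusted p = 0.3696). Among rats with the shared blank probes on neither array, the 24 h difference after 2000 mg/kg was -1.21, and among rats with them on both arrays it was -2.38, each of them called.

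In bulk liver, fewer cells of a type and less RNA per cell cannot be told apart, and markers of several non-parenchymal cells were lower at 24 h as Ubd was. At 24 h and 2000 mg/kg, 2 of 5 Kupffer cell and macrophage markers were lower (Clec4f, at -0.91 ± 0.14, and Cd5l, at -0.79 ± 0.13). The mean level of these 5 markers per rat ranged from -0.40 to -0.06 in the dosed rats, against -0.15 to 0.51 in the vehicle rats. All 3 measured endothelial markers were lower, with a mean level from -0.75 to -0.20 in the dosed rats, against -0.03 to 0.23 in the vehicle rats. Of the stellate cell markers 2 of 4 were lower, as some were at 3 and 6 h, where Ubd was not called, and of the T and NK cell markers 1 of 4, while 0 of 2 B cell markers and 0 of 3 bile duct markers changed. Among the neutrophil markers 1 of 3 was higher, S100a9 at 1.64 ± 0.54. Their part in the fall of Ubd, or in any other change at 24 h, was not tested.

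The SUMO and NEDD8 genes had small differences. Sumo2, which encodes a modifier that can form chains under stress, had a level from -0.20 to 0.64 (median 0.15) at 24 h after 2000 mg/kg, against -0.20 to -0.01 (median -0.12) in vehicle rats. The groups overlapped and 5 of 6 dosed rats lay above the vehicle mean. Sumo2 rose by 0.35 ± 0.09 after 1500 mg/kg (adjusted p = 0.001736) and by 0.30 ± 0.09 after 2000 mg/kg (adjusted p = 0.008651). Without rat 5889 of the 2000 mg/kg group the second value was 0.20 and was no longer called (adjusted p = 0.08098). Sumo3 differed from vehicle at 24 h and 2000 mg/kg by -0.08 ± 0.12 (adjusted p = 0.7328) and Nedd8 by -0.07 ± 0.08 (adjusted p = 0.5756).

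Of the 4 activating enzymes, the 2 that serve SUMO and NEDD8 rose at 24 h. Uba2, the catalytic subunit of the SUMO E1, had a level from 0.54 to 1.56 (median 0.81) after 2000 mg/kg, against -0.29 to 0.90 (median 0.16) in vehicle rats. All 6 dosed rats exceeded the vehicle mean, and 1 vehicle rat, at 0.90, lay within the dosed range. The difference of Uba2 was 0.59 ± 0.16 after 1500 mg/kg (adjusted p = 0.005309) and 0.68 ± 0.16 after 2000 mg/kg (adjusted p = 0.0009174). Uba3, the catalytic subunit of the NEDD8 E1, ranged from 0.12 to 0.57 (median 0.41) after 2000 mg/kg, against -0.22 to 0.05 (median -0.18) in vehicle rats, without overlap. Uba3 rose by 0.44 ± 0.10 after 1500 mg/kg (adjusted p = 0.0006694) and by 0.52 ± 0.10 after 2000 mg/kg (adjusted p = 4.836e-05).

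Uba6 and Uba7 did not rise at 24 h past the threshold. Uba7, the E1 of the interferon-induced modifier ISG15, differed by -0.24 ± 0.10 at 24 h and 2000 mg/kg (adjusted p = 0.0639). Uba6, which charges both ubiquitin and FAT10, was called at 3 h and 2000 mg/kg alone, at 0.74 ± 0.21 (adjusted p = 0.01436). Its 2 probes lay at 0.40 and 1.09 there, and 1 of them was called. Its level there ranged from -0.24 to 1.55 (median -0.01), against -1.54 to 0.12 (median -0.40) in vehicle rats, so the groups overlapped. Rat 7365 held the highest value of 1.55, with the next at 0.21, and its 2 arrays correlated at -0.111 after turning. Without that rat the difference of Uba6 was 0.48 (adjusted p = 0.1304), and without vehicle rat 2698 it was 0.54 (adjusted p = 0.106).

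The conjugating enzymes held called genes at all 3 times. At 24 h and 2000 mg/kg, 8 of the 19 E2 genes were higher and 2 lower, against 11.8% and 12.5% of all rows, with a median difference of 0.25. At 3 h and 2000 mg/kg 2 were higher and 0 lower, against 4.92% and 4.09% of all rows. At 6 h and 2000 mg/kg 4 were higher and 1 was lower, against 5.31% and 5.84% of all rows.

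Ube2t, the E2 of the Fanconi anaemia pathway of DNA crosslink repair, was high at 3 h and low at 24 h. At 3 h its level ranged from 1.05 to 1.72 (median 1.54) after 2000 mg/kg, against -0.64 to 0.46 (median -0.14) in vehicle rats, without overlap. Ube2t rose by 1.46 ± 0.29 after 1500 mg/kg (adjusted p = 0.0004155) and by 1.56 ± 0.29 after 2000 mg/kg (adjusted p = 8.271e-05), a fold of 2.96 at the higher dose. At 6 h after 2000 mg/kg the difference was 0.84 ± 0.29 (adjusted p = 0.04956), and leaving out any of 8 of the 12 rats ended this call (adjusted p from 0.05742 to 0.149). At 24 h the level of Ube2t ranged from -1.32 to -0.89 (median -0.94) after 1500 mg/kg, against -0.84 to 0.74 (median 0.00) in vehicle rats, without overlap. Its fall was -0.97 ± 0.29 (adjusted p = 0.01086), and without vehicle rat 0685 it was -0.81 (adjusted p = 0.05023). After 2000 mg/kg the 24 h difference was -0.71 ± 0.29 and was not called (adjusted p = 0.06864).

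Ube2c and Ube2s are the E2 pair of the anaphase-promoting complex, Ube2c starting ubiquitin chains on mitotic targets and Ube2s extending them. At 24 h the level of Ube2c ranged from -3.24 to 0.08 (median -2.46) after 2000 mg/kg, against -1.06 to 0.92 (median 0.05) in vehicle rats. The groups overlapped through 1 dosed rat at 0.08, and the other 5 lay below the vehicle range. The difference of Ube2c was -1.97 ± 0.43 after 1500 mg/kg (adjusted p = 0.0003837) and -1.92 ± 0.43 after 2000 mg/kg (adjusted p = 0.0004625). Its spread among vehicle rats was wide, and among rats without the shared blank probes the difference of -1.48 after 2000 mg/kg was not called (adjusted p = 0.08176), nor was the difference of -2.26 among rats with them on both arrays (adjusted p = 0.06472).

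Ube2s was called higher at 3 h after both high doses. Its level ranged from 1.11 to 1.32 (median 1.21) at 3 h after 2000 mg/kg, against -0.14 to 0.79 (median 0.60) in vehicle rats, without overlap. Ube2s rose by 0.54 ± 0.15 after 1500 mg/kg (adjusted p = 0.01476) and by 0.76 ± 0.15 after 2000 mg/kg (adjusted p = 0.000107). Without vehicle rat 1009 the value after 1500 mg/kg was 0.42 (adjusted p = 0.08779), and without vehicle rat 1658 it was 0.47 (adjusted p = 0.05114). At 6 h and 2000 mg/kg Ube2s was higher by 0.47 ± 0.15 (adjusted p = 0.02439), and 4 of 12 rats each ended this call when left out (adjusted p from 0.0533 to 0.06369). At 24 h the difference was 0.36 ± 0.15 and was not called (adjusted p = 0.06451). The response of Ube2s was not called different between times, at -0.31 ± 0.18 for 6 minus 3 h and 0.01 ± 0.18 for 24 minus 6 h.

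Ube2f, the E2 that passes NEDD8 to the cullin Cul5, was highest at 6 h. Its level there ranged from 0.50 to 0.69 (median 0.65) after 2000 mg/kg, against -0.41 to -0.16 (median -0.31) in vehicle rats. The groups did not overlap, and the dosed rats lay close together. The 6 h difference of Ube2f was 0.84 ± 0.12 after 1500 mg/kg (adjusted p = 8.311e-07) and 0.93 ± 0.12 after 2000 mg/kg (adjusted p = 3.008e-08), a fold of 1.90 at the higher dose. At 24 h Ube2f was still higher by 0.52 ± 0.12 after 1500 mg/kg and by 0.54 ± 0.12 after 2000 mg/kg (adjusted p = 0.0005829 and 0.0003553). At 3 h its differences of 0.28 ± 0.12 and 0.20 ± 0.12 were not called. Ube2m, the NEDD8 E2 that serves other cullins, was called at 24 h and 2000 mg/kg alone, at 0.27 ± 0.09 (adjusted p = 0.01658). Without rat 9388, vehicle rat 0685 or vehicle rat 1457 its adjusted p lay between 0.05047 and 0.06874.

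**Figure D3:**
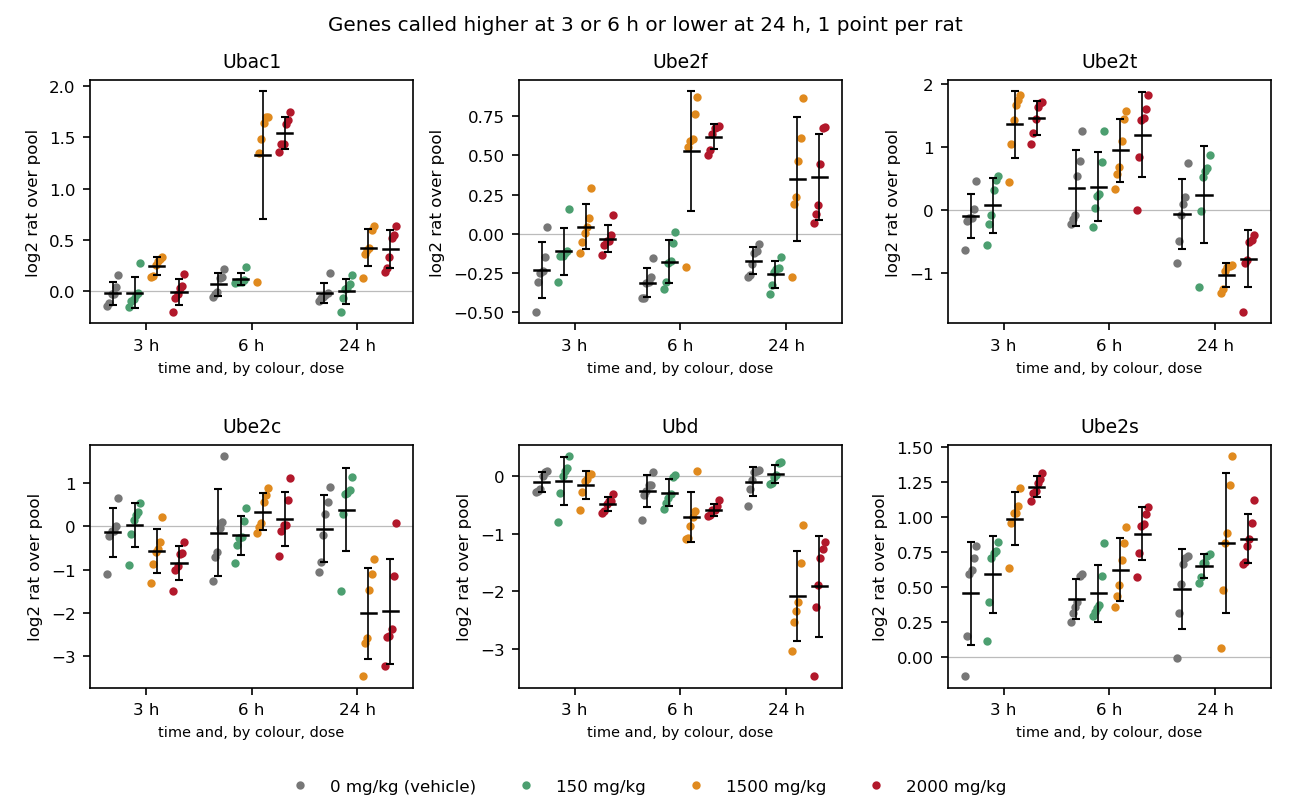
Level (log2 of the rat over the pool, y axis) of 6 genes called higher at 3 or 6 h or lower at 24 h in all 72 rats, by time (x axis) and dose (colour); lines and bars are the mean and SD of 6 rats. At 2000 mg/kg all rats lie above all vehicle rats for Ube2t and Ube2s at 3 h and for Ubac1 and Ube2f at 6 h. At 1500 mg/kg 1 rat lies within the vehicle range in each of these, and Ubd and Ube2c are lower at 24 h.

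Ube2q2 and Ube2d3 had the largest E2 rises at 24 h. Ube2q2 ranged from 0.42 to 1.34 (median 0.94) after 2000 mg/kg, against -0.24 to 0.26 (median 0.08) in vehicle rats, without overlap. The difference of Ube2q2 was 0.79 ± 0.13 after 1500 mg/kg (adjusted p = 3.199e-06) and 0.86 ± 0.13 after 2000 mg/kg (adjusted p = 3.612e-07). Its 2 probes were both called, at 0.68 and 1.05. Ube2d3, a broadly acting E2 that works with many RING ligases, ranged from 0.60 to 1.21 (median 0.93) after 2000 mg/kg, against -0.09 to 0.34 (median 0.27) in vehicle rats. These groups did not overlap either. Ube2d3 rose by 0.61 ± 0.10 after 1500 mg/kg (adjusted p = 4.381e-06) and by 0.73 ± 0.10 after 2000 mg/kg (adjusted p = 8.12e-08), whereas at 6 h its differences were -0.20 ± 0.10 and -0.19 ± 0.10 and were not called. Ube2d2 of the same subfamily rose by 0.41 ± 0.10 at 24 h and 2000 mg/kg (adjusted p = 0.001098). The genes of this subfamily are alike in sequence, and cross-hybridisation of their probes was not tested.

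Ube2n and its inactive partner Ube2v2, which together build a chain type used in signalling and DNA repair, were both higher at 24 h. After 2000 mg/kg the difference of Ube2n was 0.42 ± 0.12 (adjusted p = 0.004376), with 3 of 3 probes called, and that of Ube2v2 was 0.44 ± 0.11 (adjusted p = 0.001287). Ube2v2 was also called at 6 h and 2000 mg/kg, at 0.45 ± 0.11 (adjusted p = 0.002434), where the dosed rats ranged from -0.13 to 0.16 and the vehicle rats from -0.61 to -0.15. Ube2l3, which works with HECT and RBR ligases, was called higher at 24 h and 2000 mg/kg (0.25 ± 0.09, adjusted p = 0.04134) and lost the call without any of 6 of 12 rats (adjusted p from 0.05456 to 0.1275). Ube2k was called after 1500 mg/kg alone, at 0.36 ± 0.12 (adjusted p = 0.02382), and lost the call without rat 9537 or vehicle rats 1457 or 5999 (adjusted p from 0.05118 to 0.1483). On the arrays with the rat in Cy3 alone, the difference of Ube2k was -0.02.

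Ube2e2 was the E2 called lower at both 6 and 24 h. At 6 h and 2000 mg/kg its level ranged from -0.79 to -0.28 (median -0.38), against -0.17 to -0.08 (median -0.14) in vehicle rats, without overlap. The difference was -0.30 ± 0.07 at 6 h (adjusted p = 0.002444) and -0.24 ± 0.07 at 24 h after 2000 mg/kg (adjusted p = 0.008176). Its 3 probes did not move alike at 24 h, with values from -0.67 to 0.17, of which 2 were called.

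Ligases and chain-extending factors had the smallest share of called genes among the 6 roles at 24 h. Of the 8 genes, 0 were called at 24 h and 1500 mg/kg, against 21.5% of all rows called in either direction. At 24 h and 2000 mg/kg 1 was called, against 24.3% of all rows. A class of 8 genes is too small to set apart from all rows by such counts. Ube3a, the HECT ligase also known as E6AP, rose by 0.46 ± 0.14 there (adjusted p = 0.01153), with levels from 0.398 to 0.996 (median 0.61) in the dosed rats, against -0.25 to 0.61 (median 0.19) in vehicle rats. Its 3 probes ranged from 0.01 to 0.99 and only the highest was called. Without vehicle rat 1457 the difference of Ube3a was 0.37 (adjusted p = 0.05697).

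Ube4b, which lengthens ubiquitin chains, fell by 0.25 ± 0.07 at 3 h and 2000 mg/kg (adjusted p = 0.01047). Its 2 probes lay at -0.435 and -0.07 there, and 1 of them was called. Its level ranged from -0.42 to -0.15 (median -0.28) there, against -0.25 to 0.16 (median -0.03) in vehicle rats, with 6 of 6 dosed rats below the vehicle mean. Nedd4, the founding member of a HECT ligase family, varied widely between rats. At 24 h it ranged from 0.53 to 2.73 (median 1.38) after 2000 mg/kg, against 0.13 to 1.36 (median 0.81) in vehicle rats, a difference of 0.63 ± 0.33 (adjusted p = 0.1736).

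Among the 40 deubiquitinases, 8 were higher and 2 lower at 24 h and 2000 mg/kg, against 11.8% of all rows higher and 12.5% lower. After 1500 mg/kg 9 were higher and 1 lower, against 10.2% and 11.4% of all rows. The median difference of the 40 genes was 0.16 at both doses. Usp14, a deubiquitinase that sits on the proteasome and trims ubiquitin from its substrates, ranged from 0.51 to 2.53 (median 0.90) at 24 h after 2000 mg/kg, against -0.07 to 0.12 (median 0.07) in vehicle rats. The groups did not overlap. The difference of Usp14 was 0.69 ± 0.16 after 1500 mg/kg (adjusted p = 0.0009923) and 1.04 ± 0.16 after 2000 mg/kg (adjusted p = 9.639e-07). Rat 5889 held the highest value, with the next at 0.97, and without it the difference after 2000 mg/kg was 0.75 and was still called. Uchl5, which also binds the proteasome, differed by 0.19 ± 0.10 and was not called (adjusted p = 0.1743).

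Uchl3, a hydrolase that processes ubiquitin and NEDD8 precursors, ranged from 0.27 to 1.26 (median 0.69) at 24 h after 2000 mg/kg, against -0.22 to 0.06 (median -0.10) in vehicle rats, without overlap. Uchl3 rose by 0.83 ± 0.16 after 1500 mg/kg (adjusted p = 4.297e-05) and by 0.84 ± 0.16 after 2000 mg/kg (adjusted p = 2.583e-05). After 1500 mg/kg 1 of the 6 rats, at -0.14, lay within the vehicle range. Otud6b of the ovarian tumour (OTU) family had the largest difference of the class, 1.10 ± 0.40 at 24 h and 2000 mg/kg (adjusted p = 0.03651), with a wide spread. It ranged from 1.29 to 2.72 (median 1.75) in the dosed rats, against 0.14 to 1.87 (median 0.83) in vehicle rats. Leaving out any of 5 of these 12 rats ended its call (adjusted p from 0.05725 to 0.1067). Otud4 of the same family ranged from 0.40 to 1.60 (median 0.91), against -0.11 to 0.46 (median -0.01) in vehicle rats, a rise of 0.83 ± 0.19 (adjusted p = 0.0003805).

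**Figure D4:**
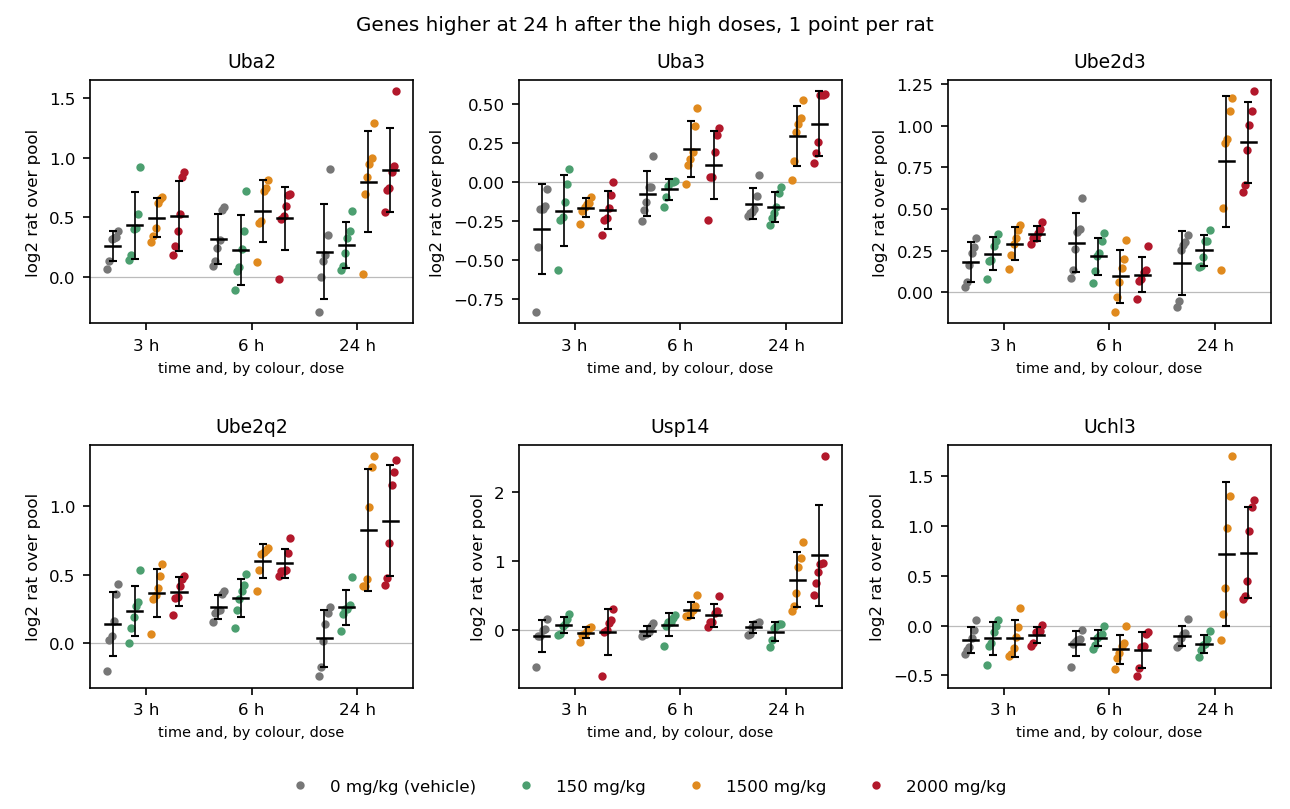
Level (log2 of the rat over the pool, y axis) of 6 genes called higher at 24 h in all 72 rats, by time (x axis) and dose (colour); lines and bars are the mean and SD of 6 rats. At 24 h all rats at 2000 mg/kg lie above all vehicle rats for Uba3, Ube2d3, Ube2q2, Usp14 and Uchl3, and for Uba2 1 vehicle rat at 0.90 lies among them.

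Usp16, which removes ubiquitin from histone H2A, rose by 0.65 ± 0.16 after 1500 mg/kg (adjusted p = 0.001538) and by 0.78 ± 0.16 after 2000 mg/kg at 24 h (adjusted p = 0.000135). Its level ranged from 0.78 to 1.77 (median 1.17) after 2000 mg/kg, against -0.09 to 0.70 (median 0.45) in vehicle rats, without overlap. Usp1, which acts on the Fanconi anaemia protein FANCD2, was higher by 0.55 ± 0.13 after 1500 mg/kg (adjusted p = 0.000817). After 2000 mg/kg Usp1 was higher by 0.34 ± 0.13 (adjusted p = 0.04544), with neither of its 2 probes called alone and 7 of 12 rats each ending this call (adjusted p from 0.05015 to 0.1586). Usp3 and Usp10 were also called higher at both doses, by 0.26 ± 0.10 and 0.33 ± 0.12 after 2000 mg/kg. Usp3 is an average of 2 probes, of which 1 was exactly 0 on 111 of 144 arrays. After 2000 mg/kg 1 of these 2 probes was called. Usp3 lost its call at 2000 mg/kg without any of 8 of 12 rats (adjusted p from 0.0534 to 0.2033), and Usp10 without any of 7 (adjusted p from 0.05583 to 0.1243). Usp28 at -0.23 ± 0.09 and Usp46 at -0.23 ± 0.08 were called lower after 2000 mg/kg, and leaving out 1 rat ended the call for 6 and 4 of 12 rats (adjusted p from 0.05701 to 0.1304 and from 0.05255 to 0.06069).

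Usp53, Usp9x and Usp15 were the deubiquitinases called at 3 h. Usp53, a member of the ubiquitin-specific protease family, had a level from 0.20 to 0.92 (median 0.53) at 3 h after 2000 mg/kg, against -0.39 to 0.10 (median -0.13) in vehicle rats, without overlap. Usp53 rose by 0.64 ± 0.10 after 1500 mg/kg (adjusted p = 8.526e-06) and by 0.65 ± 0.10 after 2000 mg/kg (adjusted p = 3.606e-06). Its 2 probes lay at 0.40 and 0.90 after 2000 mg/kg, and 1 of them was called. At 6 h its differences were 0.17 ± 0.10 and 0.12 ± 0.10 and were not called, and at 24 h it was called after 1500 mg/kg alone (0.33 ± 0.10, adjusted p = 0.0147). Usp9x was called at 3 h after 1500 mg/kg alone (0.38 ± 0.11, adjusted p = 0.01949). Its 4 probes ranged from 0.03 to 0.95, and 1 of them was called. Vehicle rats 1009 and 2698 and rat 6474 each ended the call of Usp9x when left out (adjusted p from 0.0516 to 0.1283). Usp15 was called at 3 h and 2000 mg/kg (0.68 ± 0.22, adjusted p = 0.03489), where its level ranged from 0.53 to 2.70 (median 0.83), against -0.28 to 0.93 (median 0.52) in vehicle rats. The highest value was again that of rat 7365, and without it the difference was 0.36 (adjusted p = 0.2829). Vehicle rats 1009, 2698 and 3420 each ended the call of Usp15 as well (adjusted p from 0.0514 to 0.1394). At 6 h Usp40 was the one deubiquitinase called, lower after 2000 mg/kg. It ranged from -0.26 to 0.16 (median -0.20), against 0.20 to 0.66 (median 0.39) in vehicle rats, without overlap. The difference of Usp40 was -0.55 ± 0.13 (adjusted p = 0.002631), and at 24 h it was 0.17 ± 0.13 (adjusted p = 0.3931).

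Usp18, which removes ISG15 and is induced by interferon, was called at no time. Its difference was -0.41 ± 0.32 at 3 h, -0.55 ± 0.32 at 6 h and 0.47 ± 0.32 at 24 h after 2000 mg/kg (adjusted p = 0.5032, 0.3271 and 0.3103). At 24 h its level spread from -0.49 to 1.72 in the dosed rats, against -0.18 to 0.37 in vehicle rats. Of the 79 genes 48 were called at neither high dose at 24 h. Their differences after 2000 mg/kg ran from -0.49 ± 0.21 for the E2 Ube2r2 (adjusted p = 0.077) to 0.64 ± 0.28 for the deubiquitinase Otub2 (adjusted p = 0.08719), and that of Usp7, which acts on Mdm2 and p53, was 0.58 ± 0.23 (adjusted p = 0.05862). Nearest the threshold at 24 h and 2000 mg/kg were Usp3 inside it (adjusted p = 0.04947) and Usp32 outside it, at 0.28 ± 0.11 (adjusted p = 0.05052).

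Among the other genes with a matching symbol, Ubac1 had the largest response at 6 h. It encodes the non-catalytic subunit of a ubiquitin ligase that targets the cell cycle inhibitor p27. At 6 h its level ranged from 1.36 to 1.75 (median 1.53) after 2000 mg/kg, against -0.06 to 0.22 (median 0.06) in vehicle rats, without overlap. Ubac1 rose by 1.26 ± 0.13 after 1500 mg/kg (adjusted p = 3.128e-10) and by 1.48 ± 0.13 after 2000 mg/kg (adjusted p = 5.038e-13), a fold of 2.79 at the higher dose. After 1500 mg/kg 5 rats lay between 1.35 and 1.70, and rat 7334 lay at 0.09, within the vehicle range. The same rat was the lowest for Ube2f, at -0.21 against 0.55 or more in the other rats of its group. Without rat 7334 the 6 h differences after 1500 mg/kg were 1.51 for Ubac1 and 0.99 for Ube2f.

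At 24 h Ubac1 was still higher, by 0.44 ± 0.13 after 1500 mg/kg (adjusted p = 0.006886) and by 0.42 ± 0.13 after 2000 mg/kg (adjusted p = 0.008781), and at 3 h its differences of 0.27 ± 0.13 and 0.02 ± 0.13 were not called. Ubap2, read by 6 probes, was called higher at 24 h and 2000 mg/kg (0.24 ± 0.07, adjusted p = 0.004702), but its probes ranged from -0.19 to 0.66, 3 of them called. Ubap1, a subunit of the ESCRT-I sorting complex, was called at 3 h and 1500 mg/kg alone (0.41 ± 0.13, adjusted p = 0.04131), a call that 8 of 12 rats each ended (adjusted p from 0.05199 to 0.1596).

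**Figure D5:**
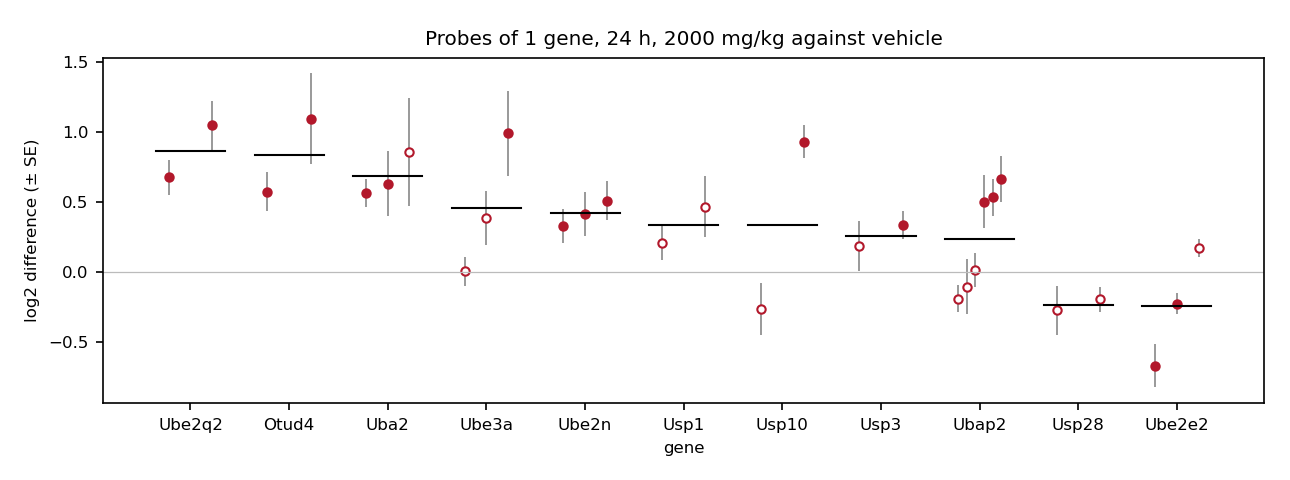
Log2 difference from vehicle (± SE, y axis) of each probe of the 11 called genes with more than 1 probe at 24 h and 2000 mg/kg; filled points are probes called in the fit with 1 row per probe, and the black line is the value of the gene. The probes of Ube2q2, Otud4, Uba2 and Ube2n lie on the same side of 0, while those of Usp10, Ubap2 and Ube2e2 lie on both sides.

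Over the 6 comparisons with high doses, 30 calls concerned a gene with more than 1 probe, and in 7 of them the probes differed in sign. These were Ubap2, Ube2e2 and Usp10 at 24 h at both doses and Usp39 at 24 h and 1500 mg/kg. For Usp10 after 2000 mg/kg the 2 probes lay at -0.27 and 0.93, of which the second was called.

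Whether responses differed between times was tested on the mean of the 1500 and 2000 mg/kg groups minus vehicle, at the later minus the earlier time. From 3 to 6 h, 3 genes had a higher response (3.8%), against 2.13% of all rows, and 1 a lower response, against 1.8% of all rows. These were Ubac1 (1.23 ± 0.16, adjusted p = 1.109e-07), Ube2f (0.65 ± 0.15, adjusted p = 0.003325) and Ube4b (0.28 ± 0.09, adjusted p = 0.04077), with Usp53 lower (-0.50 ± 0.13, adjusted p = 0.01107).

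From 6 to 24 h, 10 genes had a higher response (12.7%), against 7.52% of all rows, and 5 a lower one (6.33%), against 8.12% of all rows. The largest differences were those of Ube2c (-2.34 ± 0.53, adjusted p = 0.0008868), Ube2t (-1.56 ± 0.36, adjusted p = 0.001064), Ubd (-1.51 ± 0.29, adjusted p = 8.986e-05) and Ubac1 (-0.94 ± 0.16, adjusted p = 7.618e-06). Higher responses included those of Uchl3 (0.89 ± 0.19, adjusted p = 0.0004629), Ube2d3 (0.87 ± 0.13, adjusted p = 5.678e-07) and Usp5 (0.76 ± 0.26, adjusted p = 0.0323). Usp5, which disassembles free ubiquitin chains, was not called against vehicle at 6 h or at 24 h, where its differences after 2000 mg/kg were -0.31 ± 0.21 and 0.45 ± 0.21.

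Genes that act beside these enzymes were counted from lists chosen with earlier results of these data known. Of the 41 measured genes with a proteasome (Psm) symbol, which include assembly factors and Psmc3ip, no subunit of it, 28 were higher and 3 lower at 24 h and 2000 mg/kg, with a median difference of 0.46, against 11.8% and 12.5% of all rows. At 3 h and 2000 mg/kg 0 of the 41 changed, against 4.92% of all rows higher and 4.09% lower. At 6 h 3 were higher and 1 was lower, near the 5.31% and 5.84% of all rows. The largest rise was that of the ATPase subunit Psmc4 (1.41 ± 0.32), and the ATPase subunit Psmc5 rose by 0.84 ± 0.07. The 3 lower genes were Psmb9 (-0.997 ± 0.151) and Psmb8 (-0.79 ± 0.13), catalytic subunits of the interferon-induced immunoproteasome, and the assembly factor Psmd9 (-0.33 ± 0.07).

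Of the 13 measured ubiquitin receptors and shuttles, 11 were higher and 0 lower at 24 h and 2000 mg/kg, against 11.8% and 12.5% of all rows. At 3 and 6 h after 2000 mg/kg 0 of the 13 changed, where 9.01% and 11.1% of all rows were called. At 24 h their median difference was 0.47. The shuttle Ubqln1 rose by 1.10 ± 0.14, the autophagy receptor Sqstm1 by 1.04 ± 0.14 and the proteasome shuttle Rad23b by 0.97 ± 0.20. The segregase Vcp, which pulls ubiquitinated proteins out of complexes and membranes, rose by 0.47 ± 0.08, and its cofactor Nploc4 by 0.68 ± 0.13. Beside the same 11.8% of all rows higher and 12.5% lower, 6 of 26 measured ligases and ligase subunits were higher and 0 lower, among them the p53 ligase Mdm2 (0.71 ± 0.17) and Huwe1 (0.63 ± 0.21). Of 8 other deubiquitinases 4 were higher and 0 lower, with Yod1, a partner of Vcp, at 1.26 ± 0.36. Of 14 genes of other modifiers 4 were higher and 2 lower, and Sae1, the partner of Uba2 in the SUMO E1, rose by 0.51 ± 0.18.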

How the data were processed

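Liver RNA of 72 rats was measured on 144 two-colour arrays with 22075 probes. The authors deposited a matrix of log ratios, read here as log10 values because its base, direction and normalization were not stated in the sources used; the doses came from the authors' deposited key of rats. The median of each array lay between 0 and 0.000258, 7.74% of values were exactly 0 and 0.836% were blank. Values were multiplied to the log2 scale, the sign was turned where the rat was in Cy3, and averages were taken over both arrays per rat, then over the probes of a symbol. Of the probes, 12750 had 1 symbol, 5 had several and 9320 had none; a probe without a single symbol kept a row of its own. No column of values was left unused (0).

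Group means of the 12 groups were fitted in limma 3.58.1 (R 4.3.3) with lmFit and eBayes, and p-values were adjusted by Benjamini-Hochberg over 18978 rows at 0.05. The fit was tested on simulated data. Tables and figures were made with Python 3.11.15, pandas 2.3.3, NumPy 2.4.6 and matplotlib 3.10.9. The precision is limited by 6 rats per group, taken as separate animals from their labels, with scanner intensities not used here. Of the 135 probes of the 79 genes, 6 were exactly 0 on most arrays, and 0 of the 5688 values per gene and rat were missing.

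The genes and lists were chosen with earlier results of these data known. Genes were named by role: up to 4 called genes of each role with the largest difference at 24 h and 2000 mg/kg, up to 2 at 3 h and at 6 h, the modifiers, Nedd4 and Usp18, up to 4 genes with the largest difference between times, and those nearest the threshold. Other called genes named in the text were chosen after their values were seen. A search for genes with a like pattern was not made. Some items are not reported here. Alternatives were 1 dye orientation alone, 1 row per probe, rats as a random block, only the groups compared, quality weights, the shared blank probes as a covariate, a fold of at least 1.5, each array centred on its median, exact zeros set to missing, only rows with a value on all arrays, subsets of rats and leaving out each rat in turn. Tests of single differences were two-sided.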

Additional observations from a re-analysis of the deposited data

Results flagged for a closer look

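The vehicle, 1500 and 2000 mg/kg groups were searched for single far rats at each time for which a gene had been named, 114 sets of 6 rats. In 15 of them 1 rat lay far from the other 5 by Dixon's criterion, which chance meets in about 1 in 20 sets. Over all 12 groups of the 35 named genes it was met in 47 of 420 sets, among them Nedd4 at 3 h and 1500 mg/kg (rat 0186 at -1.915) and Sumo3 in vehicle rats at 3 h (rat 1009 at 0.024). Rat 7365 at 3 h and 2000 mg/kg was far above the others for Uba6 (level 1.551) and Usp15 (2.698). Rat 0186 at 3 h and 1500 mg/kg was high for Uba6 (0.606) and low for Usp15 (0.286). At 3 h, rats 1009 (vehicle), 0613 (150 mg/kg) and 0186 lay apart from the other rats of their groups for Sumo3 and Ube2a. Their Sumo3 levels were 0.024, 0.008 and 0.055, against 0.545 to 0.862. For Ube2a they lay at 0.162, 0.511 and -0.023, against -0.683 to -0.389. Without vehicle rat 1009 the 3 h calls of Ube2s (1500 mg/kg), Usp9x and Usp15 were lost. The cause was not tested. Rat 7334 at 6 h and 1500 mg/kg was low for both Ubac1 (0.087) and Ube2f (-0.209). Rat 6930 at 6 h and 2000 mg/kg was low for Ube2v2 (-0.131) and high for Usp40 (0.164), and rat 5886 of that group was low for Ube2e2 (-0.785). At 24 h and 2000 mg/kg rat 5889 was high for Usp14 (2.529). Among vehicle rats, the single values were 0.412 for Usp30 at 6 h, and at 24 h 0.516 for Nedd8, 0.022 for Sumo3, 0.182 for Ubac1 and -0.529 for Usp3.

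Responses to the high doses differed between times by a test of the difference itself. From 3 to 6 h the response changed by 1.229 for Ubac1, 0.645 for Ube2f, 0.283 for Ube4b and -0.501 for Usp53. From 6 to 24 h it was lower for Ube2c (-2.344), Ube2t (-1.561), Ubd (-1.508), Ubac1 (-0.938) and Usp46 (-0.296). It was higher for Uchl3 (0.893), Ube2d3 (0.866), Usp5 (0.763), Usp40 (0.626), Usp14 (0.6), Usp1 (0.598), Usp16 (0.594), Ube2q2 (0.496), Ube2m (0.366) and Sumo2 (0.305).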

How the results depend on the processing

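The counts of called genes at 24 h after 2000 mg/kg (27) stayed within 1.5 times under all alternatives but a required fold and the 2 subsets by blank probes, and those at 3 and 6 h were small and moved more. With arrays of 1 dye orientation alone, 3 genes (Cy5) and 3 genes (Cy3) were called at 3 h and 1500 mg/kg instead of 5, and with Cy3 alone 2 instead of 4 differed between 3 and 6 h and the value of Ube2k at 24 h and 1500 mg/kg was -0.023; the cause was not tested. With 1 row per probe the counts were 8 (3 h, 1500 mg/kg), 13 instead of 6 (3 h, 2000 mg/kg), 5 instead of 3 (6 h, 1500 mg/kg) and 8 between 3 and 6 h. With rats as a random block they were 8 at 3 h and 7 at 6 h after 1500 mg/kg and 7 between 3 and 6 h. With only the groups compared they were 3 at 3 h and 9 instead of 26 at 24 h after 1500 mg/kg. With quality weights per rat they were 10 (3 h, 2000 mg/kg), 12 (6 h, 1500 mg/kg), 17 instead of 7 (6 h, 2000 mg/kg) and 7 between 3 and 6 h, and a covariate for the shared blank probes gave 6 at 6 h and 1500 mg/kg. A required fold of 1.5 left 2 (3 h, 1500 mg/kg), 3 (6 h, 2000 mg/kg), 10 and 10 (24 h, both doses) and 2 between 3 and 6 h. Of the subsets of rats, chosen after seeing the data and smaller by construction, the 46 rats without the shared blank probes gave 2 and 3 calls at 3 h, 2 at 6 h and 2000 mg/kg, 3 and 12 at 24 h, 1 between 3 and 6 h and 3 instead of 15 between 6 and 24 h. The rats with them on both arrays gave 10 at 24 h and 2000 mg/kg, and the 60 rats whose 2 arrays correlated above 0 gave 4 at 6 h and 2000 mg/kg. Leaving out each rat in turn gave 3 to 5 and 4 to 7 calls at 3 h, 2 to 6 and 5 to 7 at 6 h, and 20 to 33 and 20 to 31 at 24 h, at 1500 and 2000 mg/kg in that order. The count at 3 h and 1500 mg/kg was 3 without vehicle rat 1658. That at 6 h and 1500 mg/kg was 6 without rat 7334. The number of all rows called, of 18978 gene rows, moved as well, so these counts alone show no change particular to the ubiquitin genes. At 3 h and 2000 mg/kg it was 1710, and 2030 with quality weights, while 1946 of 22075 probes were called with 1 row per probe. At 6 h the number of all rows called was 1305 and 2115 at the 2 high doses, and 3089 and 4288 with quality weights. At 24 h it was 4083 and 4608, and 1638 and 1905 with the required fold. With only the groups compared it was 1406 at 24 h and 1500 mg/kg. Of 74 gene calls against vehicle, 48 held without any 1 rat and 26 were lost without at least 1. Apart from left-out rats, 670 of 872 recomputed values kept their direction and call, 201 kept the direction alone and 1 turned. No paired analysis was possible because the rats of different groups share no number.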
